A study of Caenorhabditis elegans with 36 samples.

Results

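The his- genes of Caenorhabditis elegans encode the histones, the proteins around which DNA is wound. They were taken as every gene in the count tables whose symbol is his- followed by a number, which gave 72 genes of the 46778 gene identifiers. Of these, 42 had at least 10 counts in 3 or more of the 36 libraries and are reported here, and the other 30 never passed 7 counts in any library, 11 of them with 0 counts in every library. The core histones H2A, H2B, H3 and H4 form the nucleosome, and the linker histone H1 binds the DNA between nucleosomes. Core histone genes of the replication-dependent kind are short, lack introns and are transcribed when DNA is copied, and many lie head to head in H2A–H2B and H3–H4 pairs. In an adult hermaphrodite, cells divide in the germ line and in the embryos it carries, while the somatic cells no longer do. Intron-containing genes and the H3.3 variants can be expressed outside DNA replication.

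Total RNA was sequenced from whole hermaphrodites of the PD strain BY273, which expresses GFP and α-synuclein in dopaminergic neurons from the dat-1 promoter, and of the wild type strain N2 (WT). Hermaphrodites were raised from the L4 stage with E. coli OP50 as food, on krill oil at 0.5 µl/ml or without it (control), and collected at adult day 1, 3 and 6. No drug against progeny was used, and older adults were kept apart from their offspring by washing over a nylon mesh. There were 3 libraries in each of the 12 groups of strain, diet and day. The study calls the libraries of a group biological replicates, without saying how they were grown apart, and the p-values measure the spread between these libraries. Because whole animals were sequenced, fewer cells of a type and less RNA per cell cannot be told apart.

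Of the 42 genes, 16 encode H3, 9 H4, 9 H2A, 7 H2B and 1, his-24, the linker histone H1. They lie on chromosomes IV (16 genes), V (14), X (4), II (3), III (3) and I (2), and 35 of them have a single coding exon. In the newer Ensembl annotation, 36 of the 72 genes share their symbol with another of them. They are called copies here, and their sequences were not compared. Of these 36, 28 fell under the count minimum. By contrast 34 of the 36 genes with a symbol of their own passed it. How reads that fit several copies were counted is not given in the sources used here, so the levels of the 8 reported copies that share a symbol are uncertain.

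Levels were given as CPM, a gene's counts scaled to the same library total with TMM factors over all 36 libraries, and per kb of exon where genes are compared with each other. A set of 8 genes carried 73.4% of the counts of the reported genes. They were the H4 genes his-64, his-60 and his-67, the H3 genes his-59 and his-63, the H2B genes his-62 and his-48, and the H2A gene his-61. Per kb, his-64 averaged 4440 CPM and his-48, the lowest of these, 1522 CPM, and the next gene, his-1 (H4), averaged 764 CPM. The linker histone his-24 averaged 131 CPM per kb. At the low end, the 7 copies on chromosome IV that share a symbol averaged 2.54 (his-65) to 11.6 CPM per kb (his-66). His-69 (H3.3), his-16 (H2A), his-70 (H3.3) and his-25 (H3) averaged under 0.6 CPM per kb over the 36 libraries, with at most 22 counts in any library, and his-73 (a short H3 gene) averaged 5.07 CPM per kb and overlaps W09H1.4 on the same strand.

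**Figure D1:**
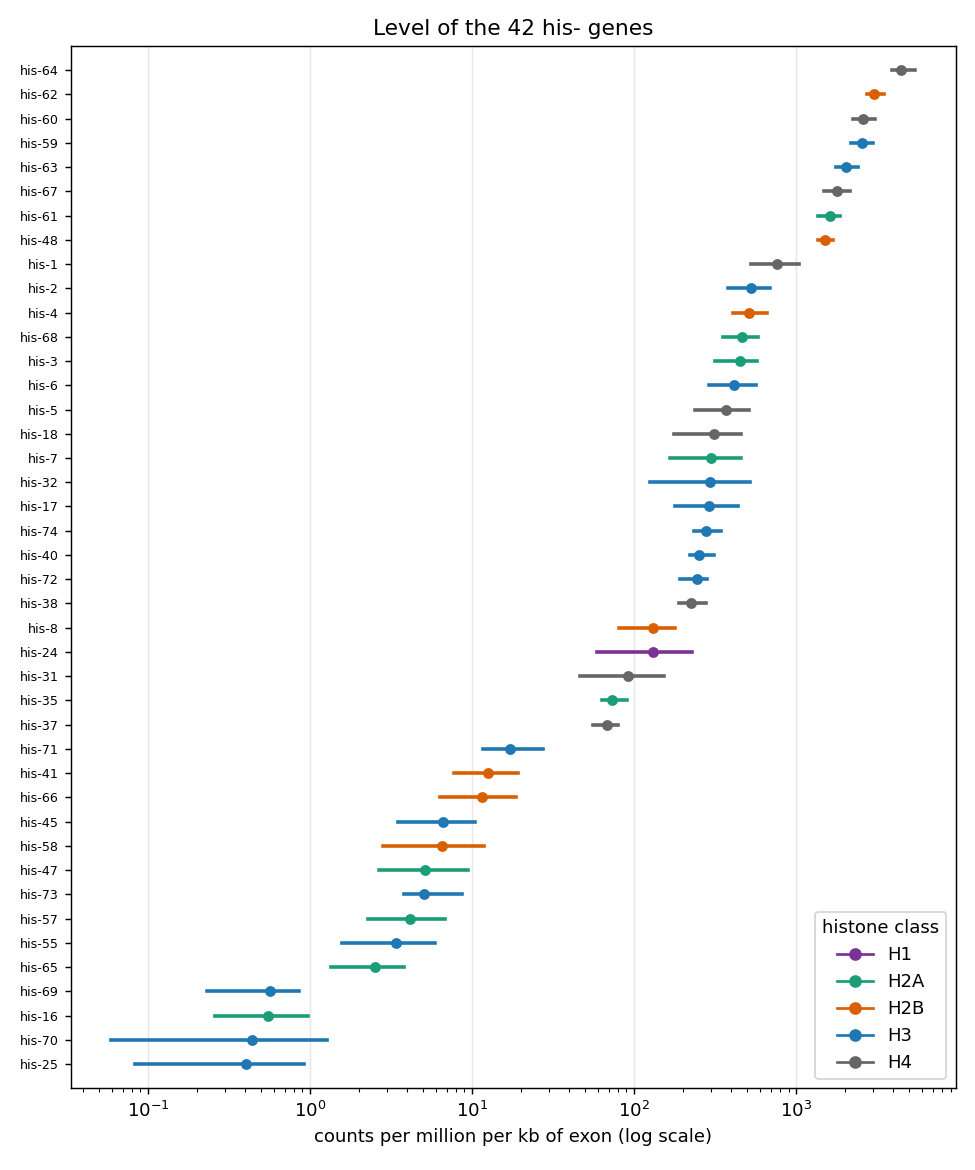
Mean level of each of the 42 his- genes in CPM per kb of exon (log scale), as a point, with a line from its lowest to its highest group mean above 0 and coloured by histone class. The 8 leading genes lie above 1500, and his-24, his-31, his-32 and the low copies on chromosome IV have the widest lines of the genes above 1 CPM per kb.

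Between groups, the 8 genes with the highest levels varied by 1.24 times (his-48) to 1.46 times (his-67), as the highest group mean over the lowest. His-32 (H3) had the widest range among genes above 10 CPM, 4.15 times, followed by his-24 with 3.85 times and his-31 (H4) with 3.32 times. All 3 had their lowest group mean in PD control animals at day 1 and their highest in PD control animals at day 3. The same held for the 10 genes his-1 to his-8, his-17 and his-18 on chromosome V, whose highest group means were 1.61 (his-4) to 2.76 times (his-7) their lowest.

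Libraries held 16488713 to 34605080 counts. Ribosomal RNA genes took 5.31 to 24.5% of them, most in PD krill oil day 1 replicate 3, and all his- genes together 0.663 to 1.15%. Markers of other stages and of germ cells differed between groups too. Over 20 larva and molt markers the summed level was 99.1 CPM in the lowest library (PD control day 6) and 1081 CPM in the highest (PD krill oil day 3). Over 41 sperm markers it ran from 29.7 CPM (PD control day 6) to 189 CPM (WT krill oil day 3), and 5 of the 41 had no count in the WT control libraries at day 6.

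Krill oil was compared with control within each strain and day, to ask which his- genes respond to the diet. A gene was called at an adjusted p under 0.05 in edgeR's quasi-likelihood test, adjusted over all genes tested in that comparison, and fold changes are on the log2 scale with their standard errors (SE).

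At day 1, krill oil raised a subset of the his- genes in both strains. In PD animals, 7 of 38 tested genes rose (18.4%, against 7.44% of all genes tested). In WT animals, 16 of 39 rose (41% of those tested, against 4.87% of all genes tested). Among all genes, 8.07% fell in PD animals and 2.49% in WT animals. The count of his- genes that fell was 0 in both strains by edgeR with the filter on low counts and by DESeq2, and at an unadjusted p under 0.05 it was 0 in PD and 1 in WT animals. The median fold change of the his- genes was 0.11 in PD and 0.24 in WT animals, against medians of 0.01 and -0.01 over all genes tested.

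The largest rises at day 1 were those of his-24, his-32 and his-31. His-24 (WBGene00001898, chrX:14490094-14491119 in WBcel235) encodes the linker histone H1, with 2 coding exons, and overlaps 2 non-coding RNA genes on the opposite strand. The strand setting of the counting is not given in the sources used here. His-24 had 180.3, 107 and 104 CPM in PD krill oil libraries, against 52.7, 59.2 and 51.6 CPM in PD control libraries. In WT animals it had 161, 212 and 179.7 CPM on krill oil, against 82.3, 61.7 and 77.95 CPM in controls. Every krill oil library was above every control library in both strains, and PD krill oil replicate 1 and WT krill oil replicate 2 were the highest of their groups. The fold change was 1.27 ± 0.18 in PD animals (adjusted p = 0.000685) and 1.32 ± 0.13 in WT animals (adjusted p = 0.00151).

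His-31 (H4, chrIV:8333672-8333983) and his-32 (H3, chrIV:8334305-8334715) are neighbours on chromosome IV that are transcribed away from each other. His-32 had 148, 99.9 and 82.1 CPM in PD krill oil libraries, against 46.4, 57.3 and 51.8 CPM in PD controls. His-31 had 40.1, 23.7 and 24.4 CPM in PD krill oil libraries, against 14.0, 16.1 and 13.5 CPM in PD controls. Neither gene's groups overlapped. His-32 rose by 1.09 ± 0.17 in PD animals (adjusted p = 0.0015) and his-31 by 1.03 ± 0.18 (adjusted p = 0.0028). In WT animals his-32 had 132, 204 and 147 CPM on krill oil, against 77.7, 67.1 and 75.1 CPM in controls (fold change 1.14 ± 0.15, adjusted p = 0.00484). His-31 had 35.7, 41.6 and 40.7 CPM in WT krill oil libraries, against 22.2, 20.8 and 22.4 CPM in WT controls (fold change 0.85 ± 0.07, adjusted p = 0.00086). Again the groups of both genes were apart.

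The other genes that rose at day 1 in PD animals were his-3 and his-7 (H2A) and his-5 and his-18 (H4), all on chromosome V, with fold changes of 0.31 (his-5) to 0.45 (his-18). In WT animals 9 of the 10 genes his-1 to his-8, his-17 and his-18 rose. The 4 genes his-1 to his-4 did so by 0.32 to 0.47, as did his-5, his-6 and his-7, by 0.45 to 0.57, while his-8 (H2B) had 0.19. His-17 (H3) rose by 0.78 ± 0.10 and his-18 by 0.51 in WT animals. His-67 (H4, chromosome I), his-38 (H4) and his-40 (H3), both on the X chromosome, and his-72, an H3.3 gene, rose by 0.24 to 0.37 in WT animals. None of the genes his-59 to his-64 or his-48 passed the test at day 1 in either strain, with fold changes of -0.13 (his-59) to 0.03 (his-60) in PD animals and -0.01 (his-64) to 0.12 (his-60) in WT animals.

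Other lists were read at day 1 as well. In PD animals 19 of 35 tested sperm markers fell and none rose (summed level 50.1 to 72.1 CPM on krill oil, against 80.1 to 95.2 CPM in controls), 5 of 16 larva and molt markers rose and 1 fell (164 to 325 CPM, against 116 to 136 CPM), and 5 of 17 early embryo markers rose. In WT animals 4 of 17 early embryo markers and 1 of 17 larva markers rose, and none of the 36 sperm markers passed the test. None of 30 germ line and oocyte markers passed it in either strain. Over all genes tested, 7.44% rose and 8.07% fell in PD animals, and 4.87% rose in WT animals. The single larva markers that fell in PD and rose in WT animals were near these shares. The libraries with the highest his-24 level also had the highest larva marker sum of their krill oil group, 325 CPM in PD replicate 1 (the others 166 and 164 CPM) and 499 CPM in WT replicate 2 (the others 249 and 316 CPM). In PD controls replicate 2 was highest in both, with 59.2 CPM of his-24 and 136 CPM of larva markers. WT controls had 181, 141.5 and 370.2 CPM of larva markers. There the 2 did not match, since his-24 was highest in replicate 1 (82.3 CPM) and the larva markers in replicate 3. The part of these lists in the his- result was not tested. In PD animals the count of 7 became 16 without krill oil replicate 3, the library with the most ribosomal RNA, and 4 without control replicate 1, and it was 13, with 1 gene lower, when only genes without any count were removed. In WT animals the count of 16 became 10 without control replicate 1 and 9 without control replicate 2.

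**Figure D2:**
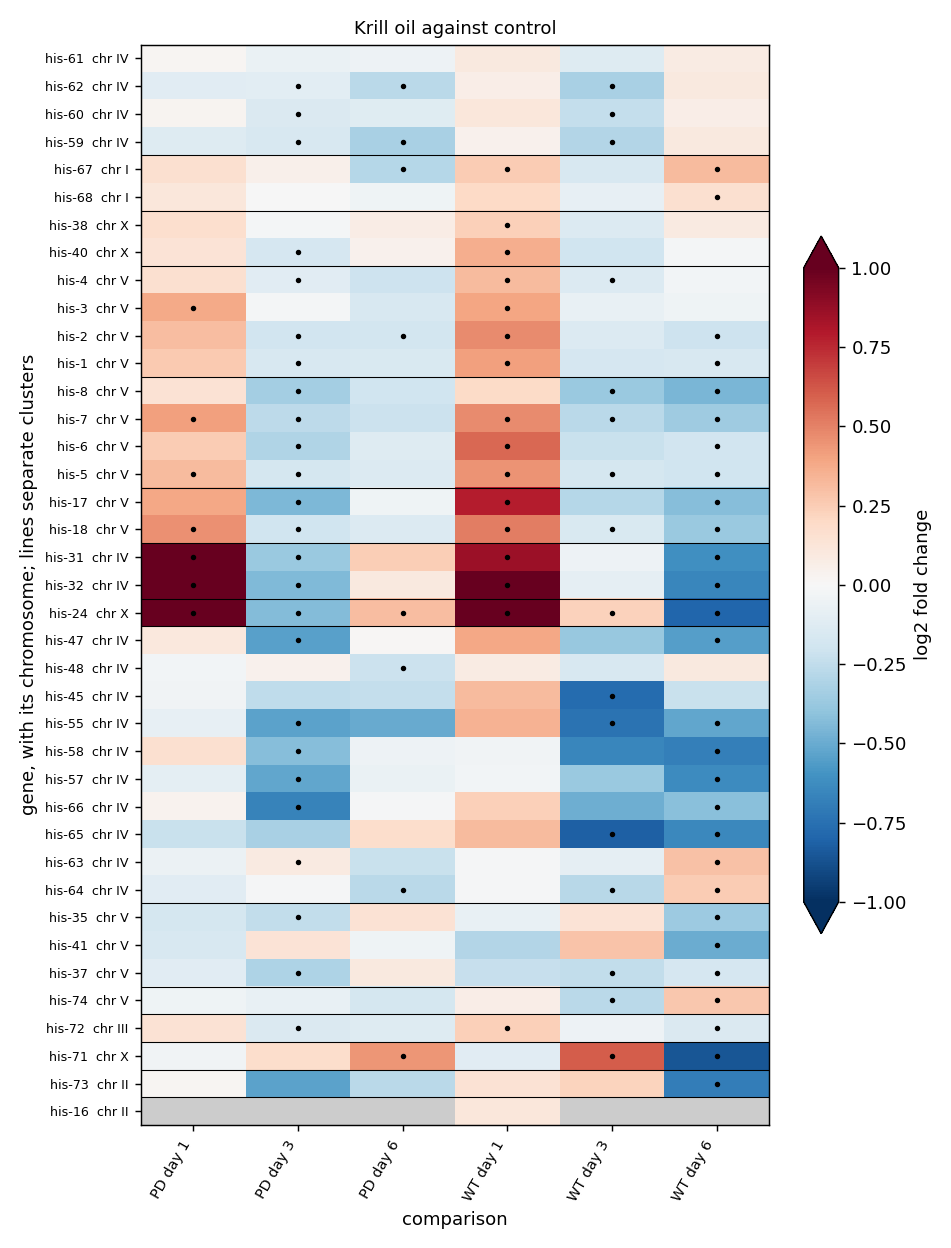
Log2 fold change of krill oil against control for each tested his- gene (rows, with lines between chromosomal clusters) in each strain and day (columns), where a dot marks an adjusted p under 0.05, grey marks a gene not tested, and the colour saturates at 1 and -1. Day 1 columns hold the red block of chromosome V genes, his-31, his-32 and his-24, and the day 3 columns and WT day 6 are mostly blue.

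At day 3 the direction was the opposite. In PD animals 24 of 38 his- genes fell on krill oil (63.2%, against 19.9% of all genes tested) and 1 rose, his-63 by 0.09 (2.63%, against 21.2%). The his-63 call was lost without control replicate 2, without krill oil replicate 1 or 2, with the replicate block and with all 36 libraries in 1 fit. In WT animals 14 of 38 fell (36.8%, against 14.1% of all genes tested) and 2 rose, his-71 and his-24 (5.26%, against 22%). The median fold change of the his- genes was -0.18 in PD and -0.17 in WT animals, against 0.00 over all genes tested in both.

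In PD animals at day 3 the genes that had risen most at day 1 were among those that fell. His-24 had 148, 156 and 163 CPM in PD krill oil libraries, against 219, 199 and 212 CPM in PD controls. All krill oil libraries were below all controls, and the fold change was -0.43 ± 0.04 (adjusted p = 1.98e-06). His-32 had 151, 162 and 164 CPM on krill oil, against 219.7, 202 and 224 CPM in controls (fold change -0.44 ± 0.04, adjusted p = 2.99e-06). His-7 fell by 0.26 ± 0.03 and his-8 by 0.34 ± 0.04 on the log2 scale. The 5 copies his-47, his-55, his-57, his-58 and his-66 fell by 0.43 (his-58) to 0.67 (his-66). The 3 abundant genes his-59, his-60 and his-62 fell by less, 0.10 (his-62) to 0.16 (his-59).

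In WT animals at day 3, by contrast, his-24 was higher on krill oil, with 145, 117 and 121 CPM against 105, 115.2 and 107 CPM in controls. The fold change was 0.23 ± 0.08 (adjusted p = 0.0451) and the groups did not overlap. His-32 had 128, 119.6 and 118 CPM on krill oil against 124, 143 and 121 CPM in WT controls, which overlapped (fold change -0.09, not called). The 4 abundant genes his-62, his-60, his-59 and his-64 fell by 0.24 (his-60) to 0.32 (his-62), his-8 by 0.37 and his-7 by 0.27. The copies his-45, his-55 and his-65 fell by 0.73 (his-55) to 0.81 (his-65). His-71, an H3.3 gene with 3 coding exons (chrX:7981382-7982070), had 14.2, 14.2 and 12.3 CPM on krill oil against 8.63, 9.36 and 8.79 CPM in WT controls, and rose by 0.61 ± 0.10 (adjusted p = 0.00145).

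At day 3 the larva and molt markers were higher on krill oil. In PD animals 17 of 20 rose and 1 fell, and their summed level was 977 to 1081 CPM on krill oil, against 673 to 724 CPM in controls. In WT animals all 20 of 20 rose, at 793 to 1028 CPM against 284 to 315 CPM, and 26 of 36 sperm markers rose (77.5 to 189 CPM, against 68.3 to 71.6 CPM). Of 17 early embryo markers, 9 fell and 1 rose in PD animals and 8 fell in WT animals. Of 30 germ line and oocyte markers, 8 rose and 5 fell in PD animals, near the shares over all genes, and 13 fell in WT animals. Their part in the his- result was not tested. The WT count of 14 was 8 or 9 without each library in turn except control replicate 3, and the PD count of 24 was 13 when all 36 libraries were fitted at once.

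At day 6, in PD animals 6 of 38 his- genes fell on krill oil (15.8%, against 12% of all genes tested) and 2 rose (5.26%, against 24.8%). In WT animals 23 of 38 fell (60.5%, against 32.6% of all genes tested) and 5 rose (against 30.9% of all genes tested). The share that fell in PD animals was near that of all genes. The median fold change was -0.13 in PD animals, against 0.05 over all genes, and -0.20 in WT animals, against -0.02 over all genes.

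In PD animals at day 6 the genes that fell were abundant ones, his-59, his-62, his-64, his-67 and his-48, together with his-2 (H3), by 0.18 (his-2) to 0.33 (his-59). His-59 had 893, 874 and 1046 CPM in PD krill oil libraries, against 1206, 1191 and 1216 CPM in PD controls. The groups were apart, and krill oil replicate 3 was nearest to the controls. His-71 rose by 0.44 ± 0.12 and his-24 by 0.31 ± 0.09. His-71 had 13.7, 11.5 and 10.5 CPM on krill oil, against 8.495, 8.76 and 9.56 CPM in controls. His-24 had 96.8, 69.8 and 81.6 CPM on krill oil, against 67.7, 69.8 and 66.6 CPM in controls, so that replicate 2 of krill oil and of control stood at the same rounded level. The count of 6 lower and 2 higher depended on single libraries. The lower count was 19 without krill oil replicate 3, 2 without control replicate 1 and 3 without control replicate 3, while the higher count was 0 to 4 when a library was left out. There were 15 lower with 1 gene higher by DESeq2 and 13 with 1 gene higher by RLE factors.

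In WT animals at day 6, his-24 had 99.3, 79.6 and 96.8 CPM on krill oil, against 155, 164 and 162 CPM in controls. It fell by 0.79 ± 0.06 on the log2 scale (adjusted p = 2.12e-07). His-32 had 98.5, 84.6 and 94.6 CPM on krill oil against 143, 149 and 148 CPM in WT controls (fold change -0.65 ± 0.05, adjusted p = 1.16e-07). His-31 had 17.9, 19.9 and 18.6 CPM on krill oil against 30.9, 28.2 and 27.5 CPM in controls, and fell by 0.61. All 3 genes thus had groups that did not overlap. His-71 had 8.79, 8.29 and 9.67 CPM on krill oil against 13.9, 17.4 and 17.4 CPM in controls (fold change -0.85 ± 0.11). His-17 fell by 0.42, his-8 by 0.46, the intron-containing H2B gene his-41 by 0.50, and 6 of the 7 tested copies that share a symbol by 0.42 (his-66) to 0.68 (his-58). The 5 genes that rose were his-63 (0.29), his-64 (0.26), his-67 (0.32), his-68 (0.16) and the H3.3 gene his-74 (0.27). By DESeq2 there were 11 higher and 16 lower in place of 5 and 23.

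Marker lists moved in both strains at day 6. In PD animals 20 of 20 larva markers and 34 of 36 sperm markers rose, with summed levels of 387 to 965 CPM on krill oil against 99.1 to 125 CPM in controls for larva markers, and of 107 to 187 CPM against 29.7 to 41.4 CPM for sperm markers. Of 30 germ line and oocyte markers 13 fell, and of 16 early embryo markers 5 rose and 1 fell in PD animals. In WT animals 33 of 37 sperm markers rose (119 to 138 CPM, against 36.02 to 42.01 CPM), 28 of 30 germ line and oocyte markers rose, the early embryo markers gave 5 higher and 6 lower of 16, and the larva markers gave 5 higher and 10 lower of 20 (613 to 659 CPM, against 754 to 766 CPM). Over all genes tested, 24.8% rose and 12% fell in PD animals, and 30.9% rose and 32.6% fell in WT animals. The early embryo counts in WT animals were near these shares. The his-70 gene, an H3.3 gene, had 22, 9 and 10 counts in PD krill oil libraries at day 6 and 12, 10 and 13 in WT krill oil libraries, against 0, 0 and 0 in PD control and 0, 0 and 3 in WT control libraries. It did not pass the filter on low counts in the krill oil comparisons. The part of other cell types in these results was not tested.

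**Figure D3:**
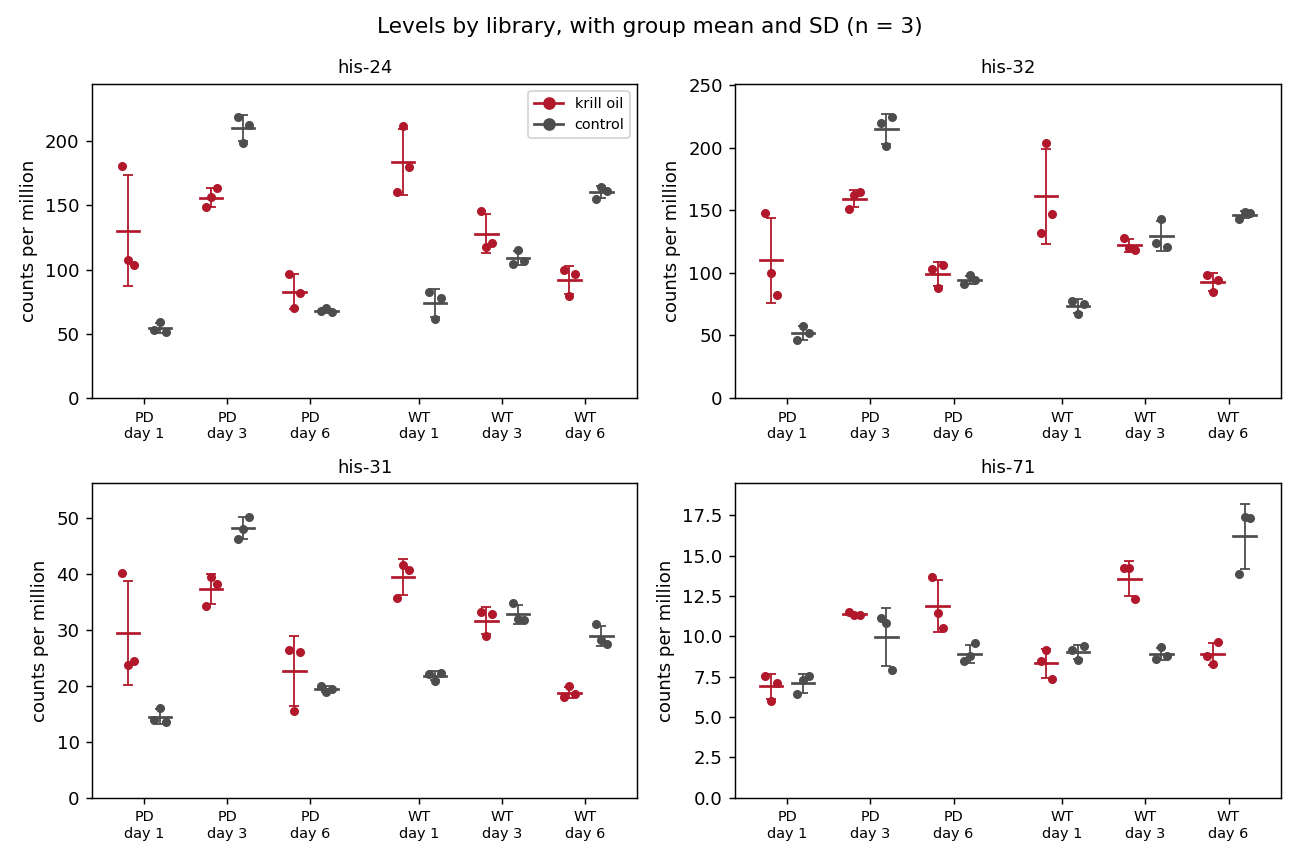
CPM of his-24, his-32, his-31 and his-71 in each of the 36 libraries, as points by strain and day with krill oil in red and control in grey, bars at the group mean and whiskers of 1 SD (n = 3). In his-24 the red points lie above the grey ones at day 1 in both strains and below them at day 3 in PD and at day 6 in WT animals.

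Of 31 neighbouring pairs transcribed away from each other, with 227 to 368 bases between the genes, 15 had both genes reported. The median absolute difference between their fold changes was 0.05 (WT day 6) to 0.10 (PD day 3 and WT day 3). In WT animals at day 1, 6 pairs rose at both genes. At day 6, 8 pairs fell at both genes and 2 rose at both genes in WT animals. In PD animals at day 3, 7 pairs fell at both genes. Other pairs had only 1 gene called, 7 of them at PD day 3, 2 at WT day 1 and 1 at WT day 6. At PD day 6 no pair was called at both genes and 6 at only 1. At WT day 3, 2 pairs fell at both genes and 6 had only 1 called. At PD day 1, 1 pair rose at both genes and 4 had only 1 called. The largest differences were 0.65 (WT day 6) and 0.58 (PD day 3). These differences are a description, with no test.

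Whether krill oil acted differently in PD and WT animals was tested with an interaction term, the response of PD minus that of WT animals. At day 1 no his- gene of 39 differed, higher or lower, in edgeR with the filter on low counts or in DESeq2 (over all genes tested 0.0345% were higher and 0.0552% lower), and at an unadjusted p under 0.05 there were 0 higher and 1 lower. When only genes without any count were removed, edgeR gave 2 lower. At day 3, 2 of 38 were higher (5.26%, against 3.4%) and 4 lower (10.5%, against 6.2%). The his-24 difference was -0.67 at day 3 (adjusted p = 0.00108), that of his-32 -0.35 and that of his-35, an intron-containing H2A gene, -0.39. The counts at day 3 changed with the setting. They were 5 and 3 by DESeq2, 7 and 3 when only genes without any count were removed, 0 and 1 with all libraries fitted at once, and 0 to 5 higher and 1 to 3 lower when a library was left out (5 higher without WT krill oil replicate 3, and 0 without any 1 of the PD controls).

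At day 6, 7 of 40 his- genes had a higher response in PD than in WT animals (17.5%, against 34.5% of all genes tested) and 8 a lower one (20%, against 25.1%). His-71 differed by 1.28 (adjusted p = 2.09e-05), his-24 by 1.09 (adjusted p = 1.15e-05), his-32 by 0.74 and his-31 by 0.84. The abundant genes went the other way, with differences of -0.33 (his-48) to -0.62 (his-67) in the 6 genes his-48, his-59, his-62, his-63, his-64 and his-67. The median difference over all genes was 0.22, and 0.09 with RLE factors, and the counts were 4 higher and 12 lower by DESeq2 and 5 and 12 by RLE factors, so the split between higher and lower depends on the scaling. Without PD krill oil replicate 2 there were 11 higher.

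The krill oil response also changed between days. In the first of these tests the response at day 1 was subtracted from that at day 3. In PD animals 15 of 38 genes had a lower difference (39.5%, against 9.53% of all genes tested) and 0 a higher one (against 9.59%), with 0 higher also at an unadjusted p under 0.05 and by DESeq2. In WT animals 28 of 40 were lower (70%, against 10.3%) and 3 higher (7.5%, against 13.5%). In PD animals the differences were -1.70 for his-24, -1.53 for his-32 and -1.41 for his-31. In WT animals they were -1.22 for his-32, -0.91 for his-31 and -0.79 for his-6.

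Between day 6 and day 3, in PD animals 4 genes had a higher difference (10.5%, against 18.3%) and 3 a lower one (7.89%, against 14.9%), among them his-24 with 0.71, his-67 with -0.37 and his-63 with -0.35. DESeq2 gave 2 higher and 6 lower, there were 8 lower without PD krill oil day 6 replicate 3, and 1 to 2 higher without each of 10 of the 12 libraries of days 3 and 6. In WT animals 10 were higher (25%, against 23.5%) and 6 lower (15%, against 28.5%). The differences were -1.47 for his-71, -1.04 for his-24 and 0.52 for his-64. The genes named for these differences between days, and for PD against WT controls below, were chosen after their values were seen.

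Levels were then compared between days in each group. The comparisons of days share libraries with those of diet, and each is given with its own values. In PD krill oil animals at day 3 against day 1, 18 of 38 his- genes were higher (47.4%, against 25.9% of all genes tested) and 9 lower (23.7%, against 23.3%). His-7 rose by 0.79, his-8 by 0.66 and his-41 by 0.72, while his-24 had 0.25 and was not called. Those that fell included the copies his-47 by 1.02, his-66 by 0.81 and his-57 by 0.79. At day 3 against day 1 in PD control animals, 21 of 38 his- genes were higher (55.3%, against 26.2% of all genes tested) and 2 lower (5.26%, against 21.5%). His-7 had 179, 175 and 177 CPM at day 3 in PD controls, against 60.4, 67.7 and 63.8 CPM at day 1 (fold change 1.47 ± 0.10, adjusted p = 6.39e-10), and the days were apart. His-32 rose by 2.05 ± 0.14, his-24 by 1.95, his-31 by 1.73 and his-8 by 1.15. His-74 and his-57 fell, by 0.29 and 0.36. Markers moved over the same days. Of 20 larva and molt markers 19 rose in PD krill oil animals, and 17 rose and 1 fell in PD controls. Of 36 sperm markers 1 rose in PD krill oil animals, and 2 rose and 29 fell in PD controls. Of 30 germ line and oocyte markers 11 fell in PD krill oil animals, and 2 rose and 16 fell in PD controls. Of 17 early embryo markers 3 rose and 6 fell in PD krill oil animals, and 8 rose and 1 fell in PD controls. Their part in the his- result was not tested.

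In WT krill oil animals at day 3 against day 1, 4 of 40 were higher (10%, against 21.8%) and 20 lower (50%, against 20.1%). The 3 H3 and H4 genes his-38, his-60 and his-40 fell by 0.45, 0.28 and 0.48, and his-41 rose by 0.86 and his-71 by 0.70. In WT control animals at day 3 against day 1, 20 of 40 were higher (50%, against 11.4%) and 0 lower (against 12.3%), with 1 lower at an unadjusted p under 0.05 and 0 lower by DESeq2. His-7 and his-6 rose by 0.62, his-31 by 0.59 and his-32 by 0.82. Larva markers gave 18 of 20 higher in WT krill oil animals, and 4 higher and 2 lower in WT controls. Sperm markers gave 5 of 39 higher on krill oil, under the share over all genes, and 2 higher and 28 lower in controls. Early embryo markers gave 1 higher and 8 lower of 17 on krill oil, and 4 higher and 1 lower in controls. Germ line and oocyte markers gave 7 of 30 lower on krill oil, and 10 higher and 1 lower in controls. Genes of replicative DNA synthesis gave 17 of 34 lower on krill oil, and 5 higher in controls. Of 13 histone RNA processing and chaperone genes, 10 were lower on krill oil and 1 in controls. The germ line count on krill oil and the replicative DNA synthesis count in controls were near the shares over all genes. The part of these lists in the his- result was not tested.

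At day 6 against day 3 most tested his- genes fell in PD animals on both diets. In PD krill oil animals 24 of 38 were lower (63.2%, against 16.8%) and 3 higher (7.89%, against 18.3%), and in PD control animals 25 of 38 were lower (65.8%, against 33.3%) and 4 higher (10.5%, against 28.4%). His-24 fell by 0.89 in PD krill oil and by 1.60 in PD control animals. The copy his-58 fell by 1.28 in PD krill oil and by 1.62 in PD control animals. His-74 rose in both, by 0.37 and 0.51. Of 20 larva markers 10 fell in PD krill oil and 16 in PD control animals. Of 36 sperm markers 31 rose and 2 fell in PD krill oil animals, and 6 fell in PD controls. Of 30 germ line and oocyte markers 6 rose in PD krill oil animals, and 27 rose and 2 fell in PD controls. Of 17 early embryo markers 1 rose and 6 fell in PD krill oil animals, and 3 rose and 9 fell in PD controls. Over 34 genes of replicative DNA synthesis 8 rose and 3 fell in PD krill oil animals, and 25 rose and 1 fell in PD controls. In PD krill oil animals the germ line and replicative DNA synthesis counts were near or under the shares over all genes. In WT krill oil animals 10 of 40 his- genes were higher (25%, against 10.3%) and 4 lower (10%, against 11.8%). His-31 was down by 0.75, his-71 down by 0.61, and his-67 up by 0.32. The 10 became 6 without day 3 replicate 2 or without day 6 replicate 1. In WT control animals 10 were higher (25%, against 36.8%) and 11 lower (27.5%, against 28.5%), with his-71 up by 0.86, his-41 by 0.75 and his-24 by 0.56, and his-61 and his-63 down by 0.28 and 0.27. The WT control median over all genes was 0.13, and 0.05 with RLE factors, and DESeq2 gave 7 higher and 16 lower and RLE factors 10 and 15. In WT krill oil animals 1 of 20 larva markers rose and 5 fell and 2 of 39 sperm markers rose, both rises under the share over all genes. In WT controls 18 larva markers rose, 3 sperm markers rose and 32 fell, and all 30 germ line and oocyte markers and all 34 genes of replicative DNA synthesis fell. The part of these lists in the his- results of either strain was not tested.

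PD controls were compared with WT controls at each day. At day 1, 9 of 39 his- genes were higher in PD animals (23.1%, against 5.88% of all genes tested) and 4 lower (10.3%, against 5.01%). All 7 tested copies that share a symbol were among the 9, by 0.80 (his-66) to 1.13 (his-47 and his-55). His-66 had 7.24, 7.07 and 6.06 CPM in PD controls, against 4.54, 3.72 and 3.496 CPM in WT controls, and the groups were apart. The 4 lower genes were his-7, his-8, his-31 and his-72, and this count was 1 or 2 without any 1 of the 6 libraries, 8 with all 36 libraries in 1 fit and 12 when only genes without any count were removed. At day 3, 26 of 38 were higher in PD animals (68.4%, against 21.5%) and 2 lower (5.26%, against 16.3%). His-24 had 219, 199 and 212 CPM in PD controls at day 3, against 105, 115.2 and 107 CPM in WT controls (fold change 0.94 ± 0.07, adjusted p = 6.32e-07), and his-32 was higher by 0.73. In the same comparison 15 of 20 larva markers were higher, 24 of 30 germ line and oocyte markers lower and 2 higher, 15 of 36 sperm markers lower and 3 higher, 8 of 17 early embryo markers higher and 3 lower, and 16 of 34 genes of replicative DNA synthesis lower. Their part in the his- result was not tested.

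At day 6, in PD controls 8 of 40 genes were higher (20%, against 30.2%) and 16 lower (40%, against 43.5%), both near or under the shares over all genes. His-24 had 67.7, 69.8 and 66.6 CPM in PD controls, against 155, 164 and 162 CPM in WT controls (fold change -1.24 ± 0.09, adjusted p = 4.12e-08). The 16 included 7 of 8 tested copies that share a symbol, with a median of -0.91 over the 8. His-74 was higher by 0.55, his-64 by 0.43 and his-67 by 0.40. The median over all genes was -0.25 here, and -0.10 with RLE factors, and by DESeq2 15 were higher and 9 lower and by RLE factors 12 each, so the balance of directions at day 6 depends on the scaling. Larva markers gave 19 of 20 lower and 1 higher in PD controls (99.1 to 125 CPM, against 754 to 766 CPM in WT controls). Germ line and oocyte markers gave 28 of 30 higher, sperm markers 12 higher and 4 lower of 37, and early embryo markers 5 higher and 8 lower of 16. Replicative DNA synthesis gave 34 of 34 higher and the histone RNA processing and chaperone genes 12 of 13 higher. The sperm markers that were higher and both early embryo counts were near the shares over all genes. The part of these lists in the his- result was not tested.

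**Figure D4:**
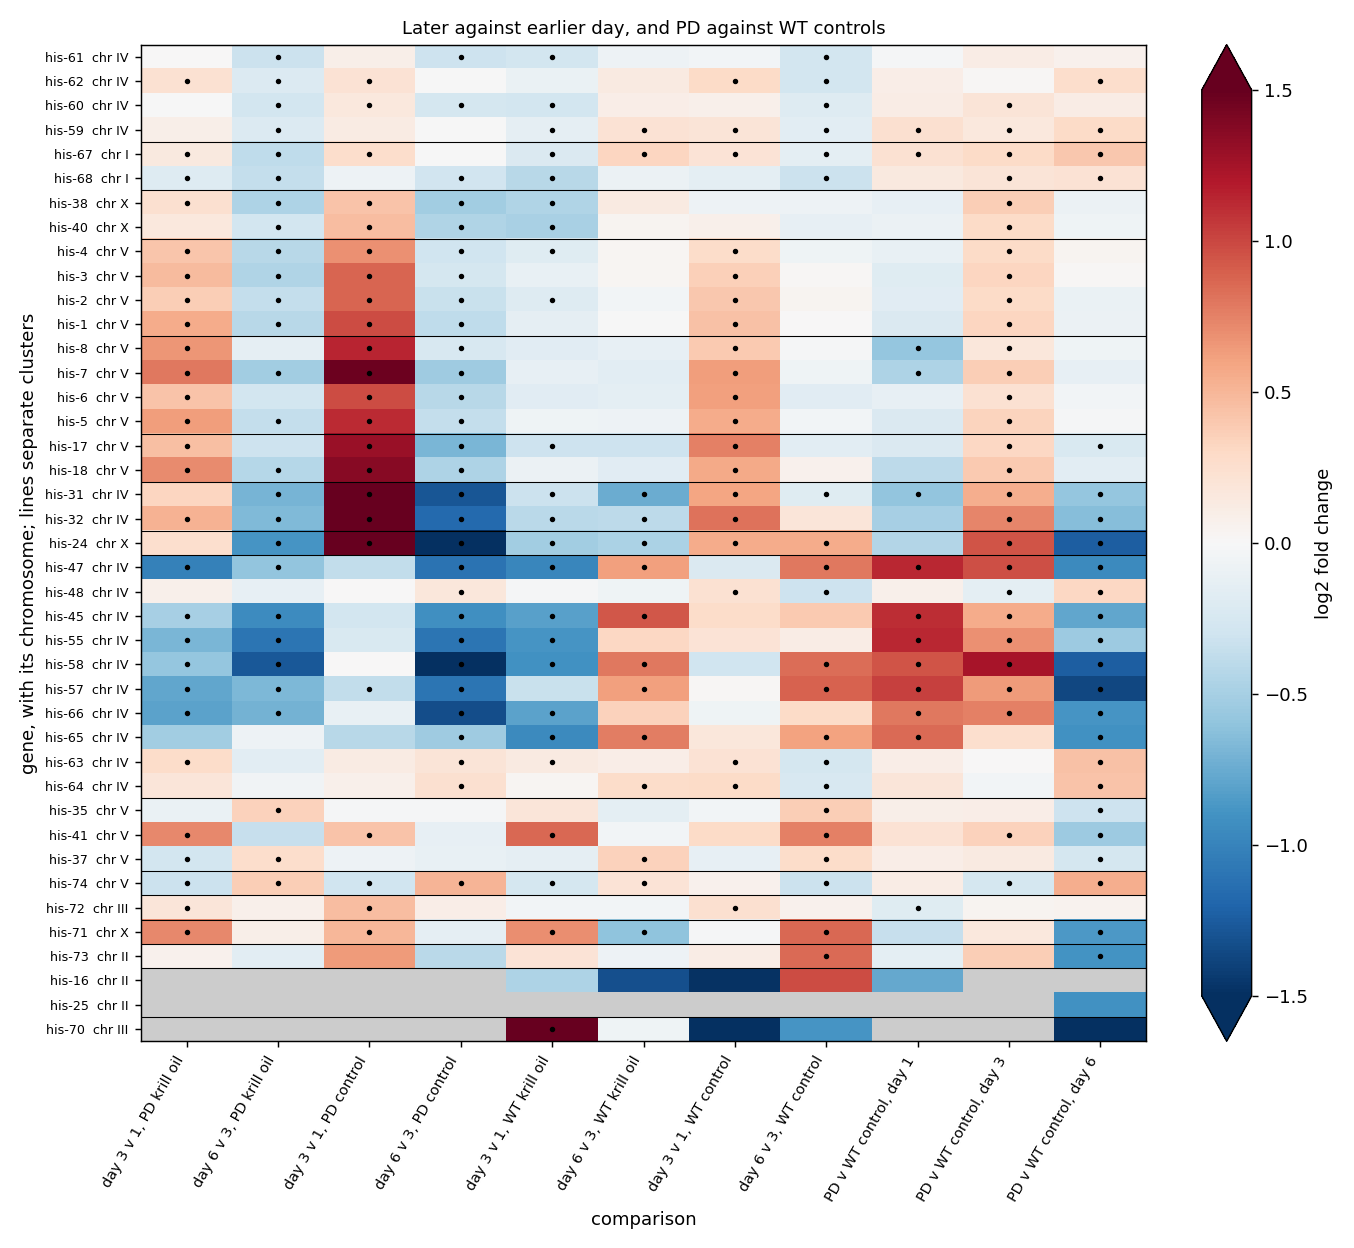
Log2 fold changes of the later against the earlier day in each strain and diet, and of PD against WT controls at each day (columns), for each tested his- gene (rows), with dots at an adjusted p under 0.05, grey where not tested, and colour saturating at 1.5 and -1.5. The colour saturates in PD controls at day 3 against day 1, up to 2.05 for his-32, and in WT krill oil animals over the same days, up to 1.69. The low copies on chromosome IV are red in PD against WT controls at day 1 and day 3 and blue at day 6.

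The 8 reported copies that share a symbol were summed. Their level was 27.2, 26.4 and 28.2 CPM at day 1, 16.2, 17.8 and 16.1 CPM at day 3 and 9.36, 10.3 and 8.45 CPM at day 6 in PD krill oil animals. In PD controls it was 27.0, 27.6 and 26.7 CPM at day 1, 25.2, 22.8 and 22.1 CPM at day 3 and 10.2, 11.1 and 9.56 CPM at day 6. WT animals at day 1 were lower, at 15.2 to 16.2 CPM on krill oil and 12.8 to 15.2 CPM in controls. At day 3 WT animals were at 8.61 to 9.82 CPM on krill oil and 12.95 to 14.29 CPM in controls. At day 6 they were at 12.1 to 16.2 CPM on krill oil. WT controls were then at 19.6 to 21.3 CPM, above every PD library of that day. The chromosome V genes his-5 to his-8 summed to 467, 479 and 466 CPM in PD controls at day 6 against 270, 295 and 298 CPM at day 1. Their highest sums in PD controls were at day 3, with 660, 625 and 629 CPM. Each of the 7 copies on chromosome IV had 10 to 186 counts per library, and the neighbouring gene klp-12 overlaps his-57 on the opposite strand.

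The intron-containing genes were summed too. His-35 (H2A), his-37 (H4) and his-41 (H2B), which lie together on chromosome V, summed to 64.9 to 75.6 CPM in PD krill oil libraries at day 1 and 73.9 to 80.0 CPM in PD controls. The highest group was WT control at day 6, with 87.1 to 90.8 CPM, against which WT krill oil animals had 69.2 to 74.2 CPM, and all 3 genes fell there, by 0.16 (his-37) to 0.50 (his-41). His-37 overlaps nstp-10 on the opposite strand and his-41 overlaps C50F4.6 on the same strand. Of the 5 H3.3 genes, his-74 averaged 162 CPM, his-72 157 CPM and his-71 10.1 CPM, and his-69 and his-70 were near 0. H3.3 genes made 9.11 to 9.93% of all H3 counts in PD krill oil and 9.11 to 9.58% in PD control libraries at day 3, the lowest of all groups, and 10.7 to 14.0% in every other library.

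**Figure D5:**
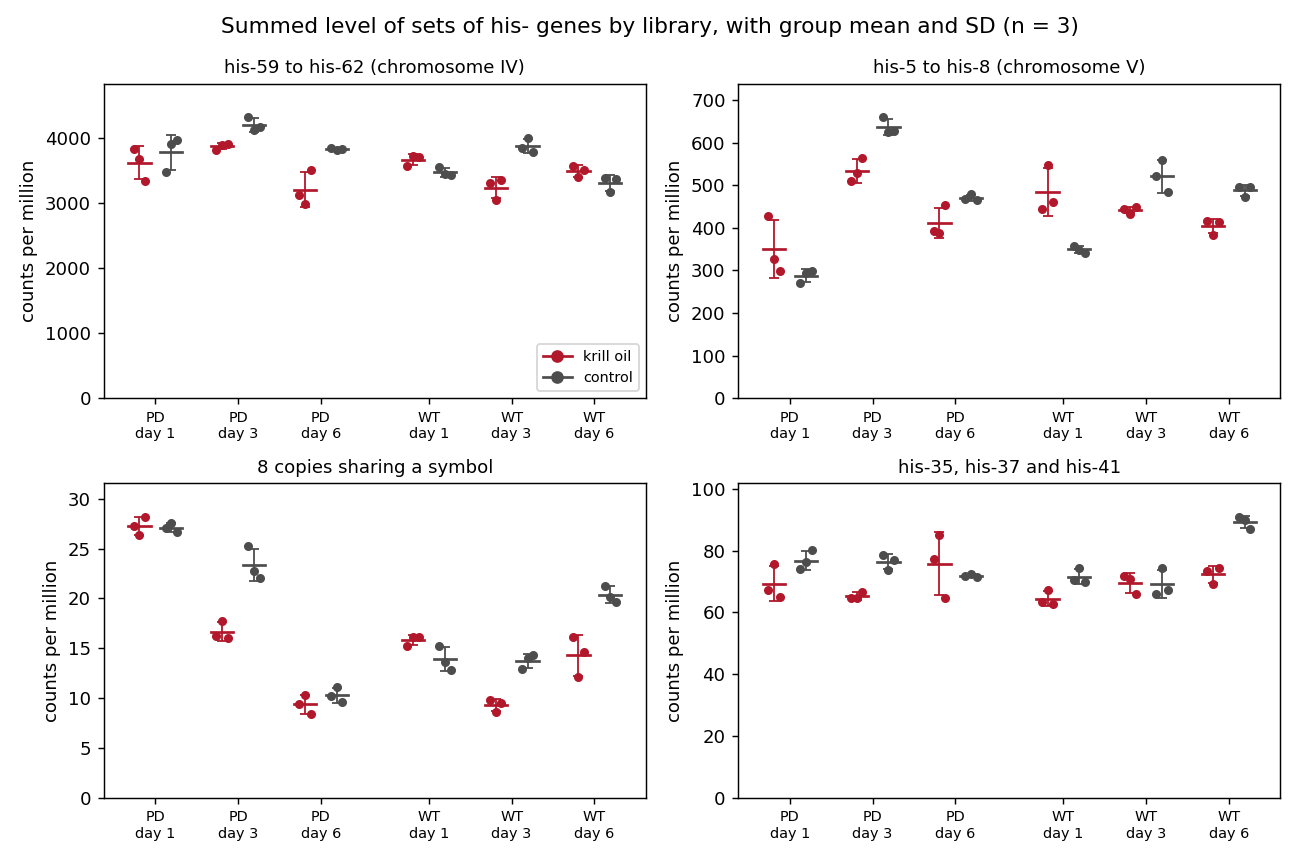
Summed CPM of 4 sets of his- genes in each of the 36 libraries, as points by strain and day with krill oil in red and control in grey, bars at the group mean and whiskers of 1 SD (n = 3). The 8 copies that share a symbol stay above 26 CPM in all PD libraries at day 1 and below 12 CPM in all PD libraries at day 6, while his-59 to his-62 stay between 2986 and 4310 CPM.

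Genes that work with histones were read from the lists as well. Htz-1, the H2A.Z variant, averaged 463 ± 24.4 CPM in WT krill oil animals and 562 ± 18.7 CPM in WT controls at day 3 (SD, n = 3 each) and fell by 0.28, and in PD animals at day 3 it fell by 0.10. Cdl-1, the stem-loop binding protein of histone mRNA, averaged 249 ± 4.26 CPM in WT krill oil and 219.6 ± 0.321 CPM in WT control animals at day 6 (fold change 0.19, adjusted p = 0.000403), and fell by 0.08 in PD animals at day 3. At day 1 it had 0.13 in PD and 0.16 in WT animals and was not called. The linker histone genes outside the his- names were hil-1 to hil-8. Of the 11 or 12 tested variants and linker histones outside the his- names, 3 rose in each strain at day 1, 1 rose and 5 fell at PD day 3, 2 rose and 5 fell at WT day 3, 3 rose and 3 fell at PD day 6, and 5 rose and 4 fell at WT day 6. Over all genes tested, 7.44% rose at PD day 1 and 4.87% at WT day 1. At day 3, 21.2% rose and 19.9% fell in PD animals, and 22% rose and 14.1% fell in WT animals. At day 6, 24.8% rose and 12% fell in PD animals, and 30.9% rose and 32.6% fell in WT animals. The rises at PD day 6 and the falls at WT day 6 were near these shares. Hil-3 rose at day 1, by 0.91 in PD and 1.06 in WT animals, and fell by 0.91 in WT animals at day 6, and hil-7 fell there by 2.06.

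Over the list of 13 histone RNA processing and chaperone genes, none was called at day 1 in either strain. At day 3, 7 fell in PD and 6 in WT animals. At day 6, 3 fell in PD and 11 rose in WT animals. Over all genes tested 19.9% fell at PD day 3, 14.1% at WT day 3 and 12% at PD day 6, and 30.9% rose at WT day 6. Unc-85, a histone chaperone of the ASF1 family, rose by 0.26 and hmg-4, a subunit of the FACT chaperone, by 0.20 in WT animals at day 6. In PD animals at day 3, by contrast, hmg-4 fell by 0.19. Over 34 genes of replicative DNA synthesis the median fold change was 0.05 in PD and -0.01 in WT animals at day 1, where 4 rose in PD and 1 in WT animals. These counts were near or under the shares over all genes tested at day 1, 7.44% in PD and 4.87% in WT animals. At day 3, 14 fell and 1 rose in PD and 22 fell in WT animals, with medians of -0.07 and -0.16. At day 6, 18 fell in PD animals and 24 rose in WT animals, with medians of -0.20 and 0.16, among them orc-1, of the origin recognition complex, and cye-1, cyclin E, which rose by 0.33 and 0.27 in WT animals.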

How the data were processed

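The authors sequenced ribosomal RNA-depleted total RNA, aligned the reads with STAR 2.7.10a to WBcel235, annotation release 96, and dropped duplicate reads that shared a UMI, per the labels and the study's methods. The deposited files hold raw counts, whole numbers per gene for 46778 identifiers in each of 36 libraries. Alignment kept reads that fit several places, up to a limit. STAR's own gene counts are named for a separate prediction of biological age, and which program made the deposited counts, and how it treated reads that fit several genes, are not given in the sources used here. Symbols were taken from RefSeq by coordinates, since the newer Ensembl annotation gives several his- genes the same symbol.

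Each krill oil comparison was fitted on its own 6 libraries, comparisons of days on the 18 libraries of a strain and comparisons of strains on the 12 libraries of a day, in edgeR 4.0.16 (R 4.3.3) with filterByExpr, TMM factors and the quasi-likelihood test. P-values were adjusted by Benjamini-Hochberg over all genes tested, and SE is the absolute log2 fold change divided by the root of F. The test was tried on simulated data. CPM was computed with TMM factors over all 36 libraries. Libraries held 16488713 to 34605080 counts. Alternatives were DESeq2 1.42.0, RLE factors, removing only genes without counts, the replicate number as a block, all 36 libraries in 1 fit, no ribosomal RNA genes, and leaving out each library. No pair of libraries of a group agreed within sampling noise (chi-square per degree of freedom of at least 3.32).

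Named genes were the most abundant member of each class, H1 and H3.3 genes, and those with the smallest p in a comparison (up to 4 in each direction for diet, 2 for days, 3 for differences between strains). Members outside this rule are named only to give a range or list a count, and were chosen after their values were seen. A further part of the rule, members whose protein differs from its class, could not be applied without protein sequences, and H3.3 genes were taken by their known role. Class was read from coding length, which gave the class used for 68 of 72 genes. Members and lists were chosen with earlier results of these data known. Of 175 listed genes, 169 were found.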

Additional observations from a re-analysis of the deposited data

Results flagged for a closer look

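The response to krill oil differed between days or strains, by the interaction term in edgeR, in these his- genes. In PD animals, day 3 minus day 1 gave -1.70 for his-24 (adjusted p = 1.05e-05), -1.53 for his-32 (adjusted p = 1.5e-05) and -1.41 for his-31 (adjusted p = 0.000419). In WT animals it gave -0.91 for his-31 (adjusted p = 1.44e-05), -1.22 for his-32 (adjusted p = 6.05e-05) and -0.79 for his-6 (adjusted p = 0.000101). Day 6 minus day 3 gave -0.37 for his-67 (adjusted p = 0.00308), -0.35 for his-63 (adjusted p = 0.0131) and 0.71 for his-24 (adjusted p = 0.0132) in PD animals. In WT animals it gave -1.47 for his-71 (adjusted p = 1.99e-06), 0.52 for his-64 (adjusted p = 2.58e-05) and -1.04 for his-24 (adjusted p = 5.96e-05).

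Between strains, PD minus WT at day 3 gave -0.67 for his-24 (adjusted p = 0.00108), -0.35 for his-32 (adjusted p = 0.0253) and -0.39 for his-35 (adjusted p = 0.0278). At day 6 it gave 1.09 for his-24 (adjusted p = 1.15e-05), 0.74 for his-32 (adjusted p = 1.88e-05) and 1.28 for his-71 (adjusted p = 2.09e-05). Values are differences of log2 fold changes. With 3 libraries in a group, single libraries were not tested for standing apart from their group.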

How the results depend on the processing

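None of the 331 called fold changes of the 29 named genes changed sign under any alternative. They lost the call in 28 cases by DESeq2, 11 by RLE factors, 27 with all 36 libraries in 1 fit, 7 with only genes without counts removed, 16 with the replicate block and 2 without ribosomal RNA genes. Leaving out a library lost 2 to 22 of the calls it entered, with 22 lost and 77 kept without PD control day 3 replicate 1. Summed levels of classes moved by more than 1 SD in 66 of 72 values without ribosomal RNA genes, which are then missing from the total, and in 11 by RLE factors. Depth limits his-16, his-25, his-69 and his-70, which had at most 22 counts in a library.

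Counts of his- genes moved by over 1.5 times as follows. With only genes without counts removed, krill oil at PD day 1 gave 13 higher and 1 lower, at PD day 6 12 lower, PD against WT controls at day 1 12 lower, and the strain interaction gave 2 lower at day 1 and 7 higher at day 3. DESeq2 gave, for krill oil at PD day 6, 1 higher and 15 lower, at WT day 6 11 higher, for PD control day 3 against day 1 1 lower, for PD against WT controls at day 6 15 higher and 9 lower, and for the strain interaction 5 higher at day 3 and 4 higher at day 6. RLE factors gave 1 higher and 13 lower at PD day 6 and 4 higher in the strain interaction at day 3. In 1 fit of all 36 libraries krill oil gave 0 higher and 13 lower at PD day 3 and 14 lower at PD day 6, PD against WT controls 8 lower at day 1 and 1 lower at day 3, and the strain interaction at day 3 0 higher and 1 lower. Without ribosomal RNA genes PD against WT controls at day 3 had 1 lower. PD control day 3 against day 1 had 1 lower with all libraries, with the block and with only genes without counts removed. The day 6 minus day 3 difference of the krill oil response in PD animals had 2 higher and 6 lower by DESeq2, 2 and 5 by RLE factors, 6 lower with only genes without counts removed and 5 lower with all libraries.

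Same-numbered libraries correlated at -0.025 to 0.283, over 0.1 in only 1 of 18 pairs. Of 18 krill oil libraries, 6 correlated best with the control of their own number. No strong pairing by number was thus seen, but these correlations cannot exclude a weaker one. The replicate block gave 0 higher at PD day 3, 1 higher and 9 lower at WT day 3, 1 lower in PD control day 3 against day 1 and in PD against WT controls at day 3, and 0 higher in the strain interaction at day 3.

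Leaving out each library gave, for krill oil, 4 to 16 higher at PD day 1, 0 to 1 at PD day 3, 0 to 4 higher and 2 to 19 lower at PD day 6, 9 to 16 higher at WT day 1, and 1 to 4 higher and 8 to 15 lower at WT day 3. For days it gave 1 to 3 higher in PD krill oil day 6 against day 3, 1 to 2 lower in PD control day 3 against day 1, 2 to 3 higher in WT krill oil day 3 against day 1, 6 to 11 higher in WT krill oil day 6 against day 3, and 0 to 1 lower in WT control day 3 against day 1. The day 6 minus day 3 difference in PD animals had 1 to 4 higher and 3 to 8 lower. PD against WT controls had 1 to 2 lower at day 1 and at day 3, and the strain interaction 0 to 5 higher and 1 to 3 lower at day 3 and 6 to 11 higher at day 6.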
